A study of Mus musculus with 10 samples.

Results

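The SOX genes encode transcription factors that bind DNA through a high mobility group (HMG) box related to that of the sex-determining factor SRY. The 10 genes described here are Sox1, Sox2, Sox3, Sox4, Sox5, Sox6, Sox8, Sox9, Sox11 and Sox12. Their members are all probe sets annotated to only 1 of these symbols, 37 of the 45137 probe sets on the Affymetrix 430A and 430B chips, with 20 on 430A and 17 on 430B. No probe set named one of these genes beside another gene. Probe sets were taken by gene name, and the genes were chosen with earlier results of these data known.

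Each chip was hybridised with RNA of 3 medulloblastomas and of 2 samples of the cerebellum beside such tumours, 10 arrays in all. The medulloblastoma, a malignant tumour of the cerebellum, and the cerebellum, named wild type in the labels, both came from mice with the CAGGS-CreER and R26-SmoM2 alleles. Both groups therefore share the alleles and 1 tamoxifen treatment, 1 mg for each 40 g of the animal, given on postnatal day 10. CAGGS is a broadly active promoter, CreER is a recombinase switched on by tamoxifen, and SmoM2 is an activated form of the Hedgehog transducer Smoothened. The age at collection is not given in the sources used here. The samples of a tissue are called biological replicates, and the p-values cover only the spread among these samples, which may in part be technical.

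SOX proteins work in families that share their HMG box and often act in the same cells. SOXB1 proteins (Sox1, Sox2, Sox3) keep neural stem and progenitor cells undifferentiated, and in the adult cerebellum Sox2 and Sox1 mark Bergmann glia. SOXC proteins (Sox4, Sox11, Sox12) come up as precursors leave the cycle and turn on genes of young neurons. SOXD proteins (Sox5, Sox6) lack an activation domain of their own and shape the action of other SOX proteins, while SOXE proteins (Sox8, Sox9) specify glia.

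The tissue labels were checked against marker lists. Of 9 measured granule precursor genes 7 rose in the medulloblastomas and 1 fell, with Atoh1 at 511, 454 and 553 units of intensity in the medulloblastomas and 27.7 and 16.2 in the cerebellum samples. All 7 markers of mature granule neurons and all 6 of Purkinje cells fell, and 10 of 11 tested markers of Bergmann glia and astrocytes fell. Of 4 tested markers of GABAergic interneurons 2 fell and of 7 tested markers of microglia 5 rose, with summed microglial intensity at 939 to 1172 in the medulloblastomas and 341 to 414 in the cerebellum samples. Array medians lay between 33.3 and 35.9 on 430A and between 22.5 and 24.0 on 430B. On the 100 probe sets that both chips hold, the 430B median exceeded the 430A median by 0.74 and 0.66 log2 units in medulloblastomas 1 and 2, by -0.06 in medulloblastoma 3, and by 0.07 and 0.10 in the cerebellum samples. For the tested SOX probe sets of 430B the values after scaling of its arrays to those probe sets are therefore given as well. RNA came from pieces of tissue, so fewer cells of a type and less RNA per cell cannot be told apart.

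The SOX genes were split between the tissues. Sox4 and Sox11 were several-fold higher in the medulloblastomas, Sox1, Sox5, Sox12 and Sox9 were moderately higher, and Sox2 was lower. No probe set of Sox3, Sox6 or Sox8 passed the test. Values are intensity as deposited. The test was limma on log2(value + 16), fitted over all probe sets of a chip, with a call at a Benjamini-Hochberg adjusted p below 0.05. The fold changes, as log2 values or as multiples, are on that scale. It understates changes where the values of either tissue are low, also in brighter probe sets. With 1 added in place of 16, the log2 fold change of Sox4 1419156_at was 3.88, against 3.05. That of Sox11 1436790_a_at was 3.59, against 3.07.

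The fit left out the dimmest 25% of probe sets, and 16 of 20 SOX probe sets on 430A and 14 of 17 on 430B remained. On 430A the test called 11 SOX probe sets higher and 1 lower, on a chip where it called 32.2% of 16970 tested probe sets, 13.1% higher and 19% lower. On 430B it called 8 higher and 0 lower, with none lower at an unadjusted p below 0.05 either, where 17.6% of 16884 were called, 7.85% higher and 9.77% lower. After the 430B arrays were scaled to the shared probe sets, 7 SOX probe sets were higher and 0 lower, and all probe sets split into 592 higher and 2008 lower, against 1326 and 1649 as deposited. Over all 20 SOX probe sets of 430A, tested or not, the median log2 difference of medulloblastoma minus cerebellum was 0.60, and over all probe sets of the chip it was -0.03. On 430B these medians were 0.45 over 17 SOX probe sets and -0.02 over the chip. The medulloblastoma values lay wholly above or wholly below the cerebellum values in 16 of the 20 SOX probe sets on 430A (14 above, 2 below), against 48.5% of all its probe sets (20.9% above, 27.6% below). On 430B this held for 11 of the 17 (10 above, 1 below), against 39.9% (18% above, 21.9% below). Several probe sets report on 1 gene, and some were designed on the same sequence record, so they are not independent. With 1 probe set per record, 7 were higher on 430A and 6 on 430B.

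**Figure D1:**
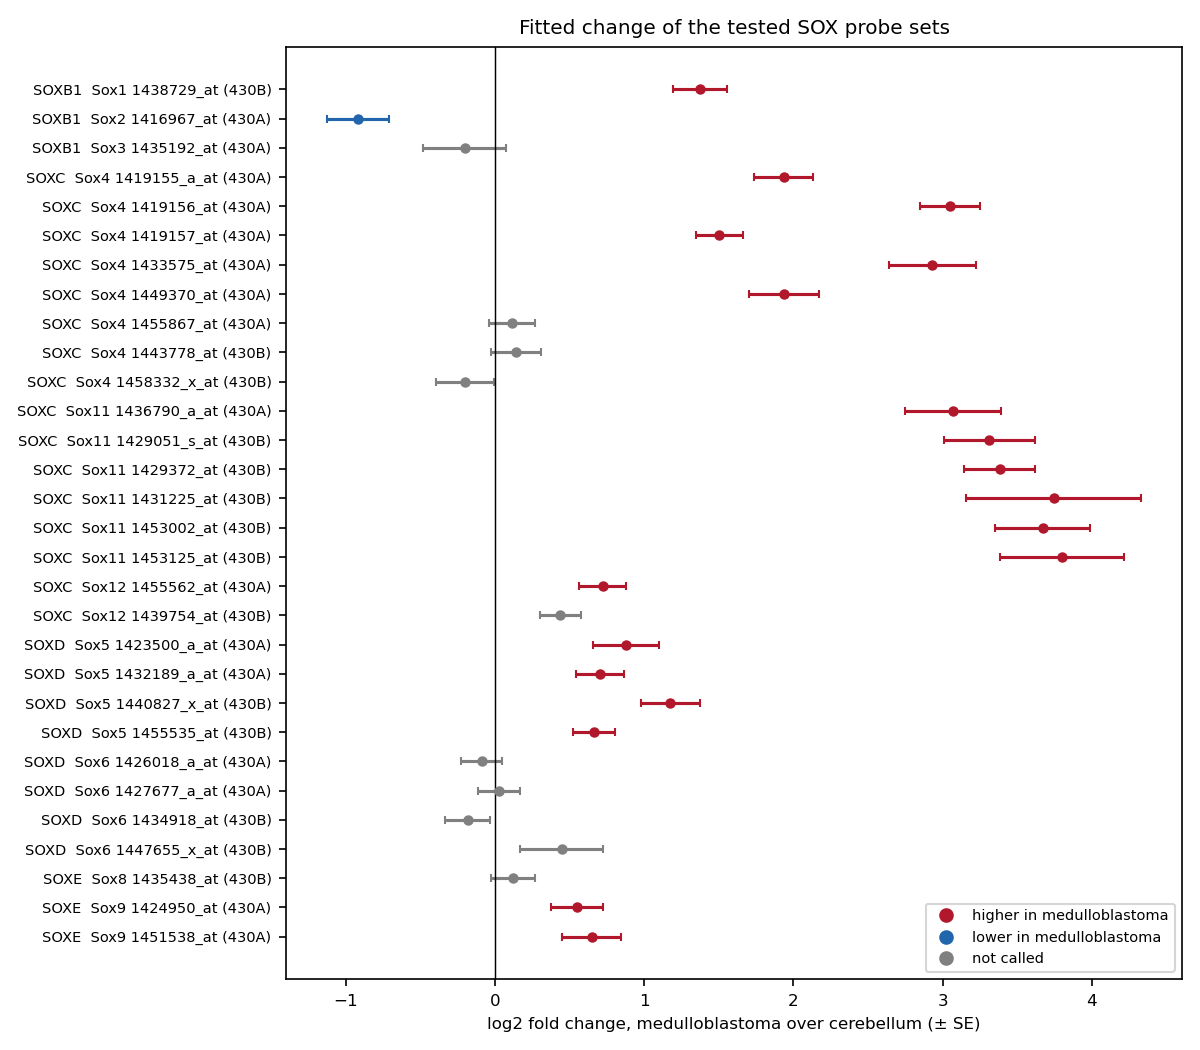
Log2 fold change of medulloblastoma over cerebellum (x axis, log2 of value + 16) with its SE for the 30 tested SOX probe sets, from 3 medulloblastoma and 2 cerebellum arrays per chip. Red marks probe sets called higher, blue called lower and grey not called. The 6 Sox11 probe sets lie between 3.07 and 3.80, and Sox2 is the one called lower.

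Among the SOXC genes, Sox11 had the largest changes, and all 6 of its probe sets were higher in the medulloblastomas. Sox11 promotes the expression of neuronal genes in young neurons. The 430A probe set 1436790_a_at read 259, 577 and 378 in the medulloblastomas, against 46.0 and 20.9 in the cerebellum samples. Every medulloblastoma lay above both cerebellum samples, and the log2 fold change was 3.07 ± 0.32 (SE, limma adjusted p = 2.93e-05), or 8.38-fold.

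On 430B the brightest Sox11 probe set, 1431225_at, read 1728, 1409 and 1329 in the medulloblastomas, against 250 and 30.8 in the cerebellum samples. On the log2 scale of the fit the cerebellum samples differed from each other by 2.51 units. The log2 fold change was 3.74 ± 0.59 (limma adjusted p = 0.00148), the widest error of the 6. Without cerebellum 1 the value was 4.998 and without cerebellum 2 it was 2.49, and it was called in both fits. Probe set 1453125_at read 826, 669 and 1098 in the medulloblastomas, against 88.8 and 20.5 in the cerebellum samples, a log2 fold change of 3.80 ± 0.42 (limma adjusted p = 0.000147). Without cerebellum 1 this value was 4.56 and without cerebellum 2 it was 3.04, called in both. The groups stayed apart here too, with the lowest medulloblastoma far above cerebellum 1.

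Probe set 1453002_at of Sox11 read 501, 318 and 433 in the medulloblastomas, against 32.3 and 7.19 in the cerebellum samples. Probe set 1429372_at read 332, 264 and 266 in the medulloblastomas, against 20.6 and 6.90 in the cerebellum samples. Probe set 1429051_s_at read 332, 267 and 430 in the medulloblastomas, against 33.6 and 9.43 in the cerebellum samples. The log2 fold changes of these 3 were 3.67 ± 0.32, 3.38 ± 0.24 and 3.31 ± 0.30, each called by limma with an adjusted p between 1.07e-05 and 4.91e-05. After scaling to the shared probe sets the 5 Sox11 probe sets of 430B had log2 fold changes between 2.90 and 3.39, all called.

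Cerebellum 1 read above cerebellum 2 in all 6 Sox11 probe sets. On the log2 scale of the fit, this gap exceeded 1 unit in 3 of the 5 on 430B, against 0.129% of all probe sets of that chip. It did so in neither the 430A probe set of Sox11 nor any Sox4 probe set. That scale understates gaps at low values, so this split depends on it. The 430A probe set of Sox11 stood at 0.75 on it, from readings of 46.0 and 20.9 in cerebellum 1 and 2. Sox4 1433575_at stood at 0.89, from 115 and 54.8. Other genes of 430A exceeded 1 unit on that scale. They included Mki67, a marker of dividing cells, at 53.8 and 11.2 in cerebellum 1 and 2. They also included Dcx, which encodes doublecortin of migrating neurons, at 95.3 and 21.9. These 2 genes were named after their values were seen. Of the 9 measured granule precursor genes 5 read higher in cerebellum 1, 2 of them by over 1 unit on the scale of the fit. Barhl1 (-0.01), Gli1 (-0.12), Zic1 (-0.29) and Zic2 (-0.29) read lower there, as cerebellum 1 minus 2 on that scale. The scale understates the gaps of dim genes, such as Gli1 (11.8 and 14.3 in cerebellum 1 and 2) and Zic2 (11.2 and 17.2). The part of these genes' cells in the cerebellum 1 values was not tested.

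Sox4, a SOXC factor of precursors and young neurons, rose in 5 of its 8 probe sets. The brightest, 1433575_at on 430A, read 554, 736 and 909 in the medulloblastomas, against 115 and 54.8 in the cerebellum samples. This gave a log2 fold change of 2.93 ± 0.29 (limma adjusted p = 1.99e-05), and the groups lay far apart. Probe set 1419156_at read 207, 301 and 248 in the medulloblastomas, against 14.9 and 17.3 in the cerebellum samples. Here the cerebellum samples were close to each other, and the log2 fold change was 3.05 ± 0.20 (limma adjusted p = 1.65e-06), or 8.27-fold.

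The other called Sox4 probe sets had smaller changes. Probe set 1419155_a_at read 158, 212 and 156 in the medulloblastomas, against 35.2 and 32.1 in the cerebellum samples, a log2 fold change of 1.93 ± 0.20. Probe set 1449370_at read 119, 201 and 134 in the medulloblastomas, against 33.1 and 21.3 in the cerebellum samples, and changed by 1.94 ± 0.23. Probe set 1419157_at read 90.3, 84.9 and 98.9 in the medulloblastomas, against 22.2 and 21.5 in the cerebellum samples, and changed by 1.50 ± 0.16. Their limma adjusted p lay between 2.32e-05 and 7.9e-05. These 3 and 1419156_at were designed on 1 sequence record, and their estimates nevertheless ranged between 1.50 and 3.05.

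The remaining Sox4 probe sets were dim and were not called. Probe set 1455867_at on 430A read 27.5, 17.4 and 22.7 in the medulloblastomas, against 17.9 and 21.1 in the cerebellum samples. The 430B probe sets 1443778_at and 1458332_x_at, from a shared record, read between 6.37 and 18.1 in the medulloblastomas and between 10.4 and 17.2 in the cerebellum samples. Groups overlapped in all 3, with log2 fold changes of 0.11 (95% interval -0.23 to 0.45), 0.14 (-0.24 to 0.52) and -0.20 (-0.63 to 0.23). After scaling to the shared probe sets, 1443778_at gave -0.0041 and 1458332_x_at -0.28, neither called. The probe sets of Sox4 thus disagreed, and the difference between them was not tested.

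Sox12, the third SOXC gene, is broadly expressed and overlaps with Sox4 and Sox11 in function. Probe set 1455562_at on 430A read 40.6, 55.0 and 52.4 in the medulloblastomas, against 25.2 and 21.8 in the cerebellum samples, and rose by 0.72 ± 0.16 log2 units (limma adjusted p = 0.00498). The call ended without cerebellum 2, at 0.66 (adjusted p = 0.0723). On 430B, 1439754_at read 31.2, 24.6 and 30.9 in the medulloblastomas, against 16.7 and 17.4 in the cerebellum samples, with 0.44 ± 0.14 (adjusted p = 0.0544), so it was not called. That value depended on the scaling, at 0.48 with equal array medians (adjusted p = 0.0398), 0.48 with quantile normalization (0.0378) and 0.21 after scaling to the shared probe sets (0.638). The groups did not overlap in either. The last probe set, 1456882_at, read at most 11.0 on any array, stood at exactly 1 in cerebellum 2 and was not tested.

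**Figure D2:**
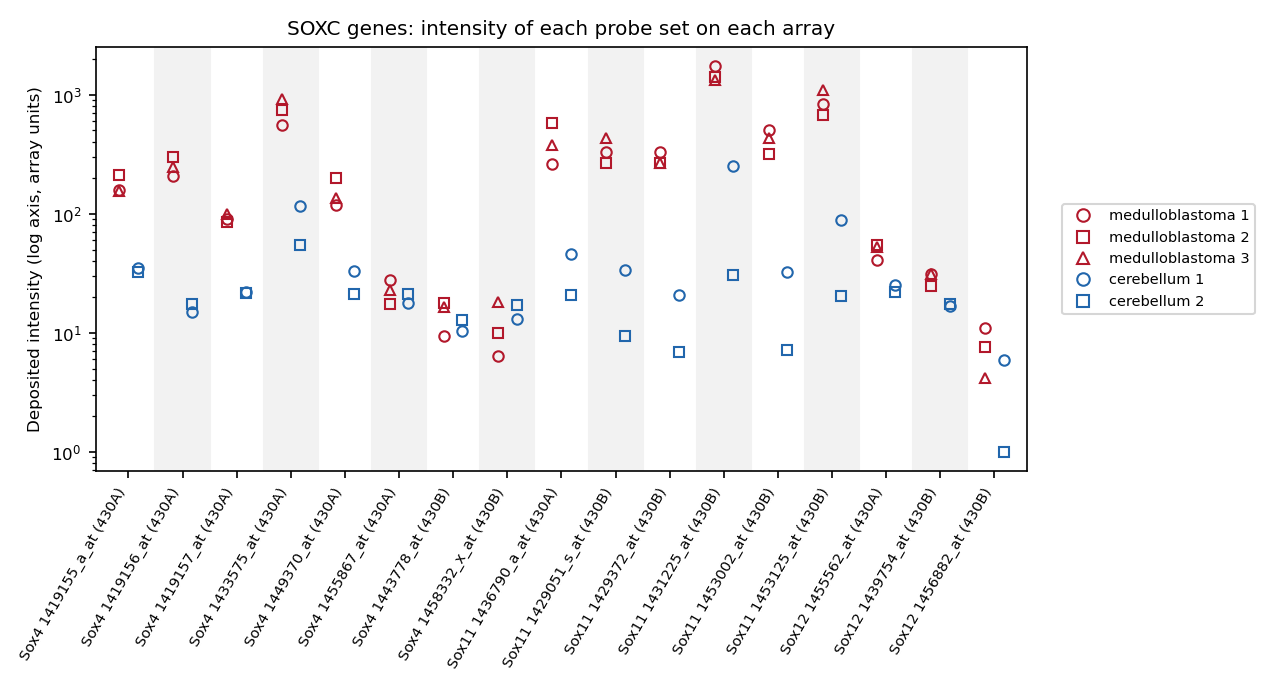
Deposited intensity (y axis, log scale) of the 17 SOXC probe sets on each array, with 3 medulloblastomas in red to the left and 2 cerebellum samples in blue to the right of each position; symbols give the replicate number within a tissue and pair nothing. The Sox11 probe sets read 259 to 1728 in the medulloblastomas and 6.90 to 250 in the cerebellum samples, and the 3 dim Sox4 probe sets overlap.

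Since each SOXC gene had at least 1 probe set called higher, the 250 bases before their annotated starts are shown, from RefSeq on the GRCm38.p6 build, each as the strand of its gene. Capitals mark the motifs searched, on both strands. They are CCAAT (reverse complement ATTGG), the E box CAGCTG that basic helix-loop-helix factors bind, the POU octamer ATGCAAAT, the TATA box TATAAA, the GLI site TGGGTGGTC, and the SOX cores ACAAAG and ACAATG. Sox4 lies on chromosome 13 (chr13:28953700-28953949, minus strand), Sox11 on chromosome 12 (chr12:27342719-27342968, minus strand) and Sox12 on chromosome 2 (chr2:152398047-152398296, minus strand).
Sox4: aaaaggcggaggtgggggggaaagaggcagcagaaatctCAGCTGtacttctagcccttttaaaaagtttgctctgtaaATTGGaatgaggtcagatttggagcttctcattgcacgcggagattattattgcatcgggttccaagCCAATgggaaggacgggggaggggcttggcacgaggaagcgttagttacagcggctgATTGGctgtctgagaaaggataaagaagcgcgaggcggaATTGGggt
Sox11: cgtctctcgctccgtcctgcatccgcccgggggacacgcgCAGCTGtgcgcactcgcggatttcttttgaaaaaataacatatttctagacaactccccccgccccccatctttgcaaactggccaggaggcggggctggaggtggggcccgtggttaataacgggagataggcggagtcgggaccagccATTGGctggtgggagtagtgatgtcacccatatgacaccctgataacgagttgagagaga
Sox12: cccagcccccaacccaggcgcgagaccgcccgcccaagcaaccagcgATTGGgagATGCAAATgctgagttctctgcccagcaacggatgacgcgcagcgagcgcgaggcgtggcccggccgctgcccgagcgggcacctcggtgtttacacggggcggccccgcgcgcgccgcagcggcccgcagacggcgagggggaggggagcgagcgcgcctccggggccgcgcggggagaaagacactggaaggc

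All 3 windows hold a CCAAT box, which 33.8% of 32851 promoter windows of this length hold. An E box CAGCTG begins 211 bases before the start of Sox4 and 210 bases before that of Sox11, and 13% of all windows hold one. The Sox12 window has no such E box and holds a POU octamer 195 bases before its start, found in 1.6% of all windows. No SOX core, TATA box or GLI site was found in the 3 windows, where the ACAAAG core is in 16.5% of all windows, ACAATG in 10.7%, TATAAA in 12.4% and the GLI letters in 0.225%. GC content was 50.8% for Sox4, 58% for Sox11 and 74.4% for Sox12, against a median of 52.4%. The ratio of observed to expected CpG pairs was 0.80, 0.81 and 1.01, against a median of 0.37. These matches describe letters in the window and show no binding.

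Of the SOXB1 genes, Sox2 was lower and Sox1 higher in the medulloblastomas. Sox2, a factor of neural stem cells and Bergmann glia, had 1 probe set, 1416967_at on 430A. It read 61.1, 90.1 and 93.8 in the medulloblastomas, against 162 and 171 in the cerebellum samples. All medulloblastomas lay below both cerebellum samples, and Sox2 fell by 0.92 ± 0.21 on the log2 scale (limma adjusted p = 0.00583), to 0.529 times the cerebellum level. Without cerebellum 2 the log2 fold change was -0.88 and the call ended (adjusted p = 0.0607). Sox2ot, the noncoding transcript that overlaps Sox2, read 11.7, 7.11 and 10.6 in the medulloblastomas, against 30.0 and 28.4 in the cerebellum samples, a log2 fold change of -0.81 ± 0.15 (limma adjusted p = 0.00327) on 430B.

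Most tested markers of Bergmann glia and astrocytes were also lower in the medulloblastomas. Their summed intensity over 12 genes was 996 to 1541 there and 8367 to 10245 in the cerebellum samples. None of the 12 was at or below 1 on all arrays. Their tested median log2 fold change was -2.42. The part of these cells in the fall of Sox2 was not tested. The Sox2 window before the start (GRCm38.p6, chr3:34649745-34649994, plus strand) is shown for comparison with the SOXC genes, with the same marks.
Sox2: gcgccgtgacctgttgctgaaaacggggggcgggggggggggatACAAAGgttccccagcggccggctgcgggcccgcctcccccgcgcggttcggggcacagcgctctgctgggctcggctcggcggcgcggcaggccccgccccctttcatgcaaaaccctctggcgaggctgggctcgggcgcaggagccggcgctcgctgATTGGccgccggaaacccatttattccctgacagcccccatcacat

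It holds a SOX core ACAAAG 206 bases before the start and a CCAAT box, and neither the E box CAGCTG nor the octamer was found there. Its GC content was 72% and its CpG ratio 0.83. Promoter windows were matched for 8 of the 10 genes, 13 windows in all, and none for Sox3 and Sox9. Only those of Sox4, Sox11, Sox12 and Sox2 are shown. Of the 13 windows 3 hold the E box, among them a window of Sox6, which was not called, and 7 hold a CCAAT box.

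Sox1, a progenitor and Bergmann glial factor, read 160, 130 and 136 in the medulloblastomas, against 43.7 and 46.0 in the cerebellum samples, with 1438729_at on 430B. The groups lay apart by a wide margin, and Sox1 rose by 1.38 ± 0.18 log2 units (limma adjusted p = 0.000485), or 2.60-fold. It was called in each fit that left out 1 array, with values between 1.30 and 1.43, and after scaling to the shared probe sets at 1.02 (limma adjusted p = 0.0039). Its 430A probe set, 1422205_at, was too dim for the fit. It read 14.3, 15.2 and 9.76 in the medulloblastomas, against 5.22 and 2.69 in the cerebellum samples, again without overlap, and with no filter its log2 fold change was 0.54 (limma adjusted p = 0.015). So 2 members of 1 family, Sox1 and Sox2, differed in opposite directions.

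Sox3, an X-linked factor of neural progenitors, gave no call. Probe set 1435192_at read 3.52, 21.2 and 28.0 in the medulloblastomas, against 20.9 and 20.1 in the cerebellum samples. Medulloblastoma 1 stood apart from the other medulloblastomas, the groups overlapped, and the log2 fold change was -0.20 (95% interval -0.81 to 0.41, limma adjusted p = 0.638). Without medulloblastoma 1 it was 0.15. The other probe set, 1450485_at, read at most 5.47 on any array and was not tested.

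Both SOXD genes act in neurons and glia, and only the probe sets of Sox5 were called. Sox5 has 7 probe sets, of which 4 were tested and all 4 were higher in the medulloblastomas. The brightest, 1440827_x_at on 430B, read 102, 66.7 and 101 in the medulloblastomas, against 32.9 and 27.9 in the cerebellum samples. The groups did not overlap, and the log2 fold change was 1.17 ± 0.20 (limma adjusted p = 0.00219), or 2.26-fold. After scaling to the shared probe sets it was 0.85 (adjusted p = 0.0291). Its suffix marks probes that may bind other transcripts too.

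Probe set 1455535_at of Sox5 on 430B read 44.9, 42.6 and 40.0 in the medulloblastomas, against 18.2 and 23.7 in the cerebellum samples. It rose by 0.66 ± 0.14 log2 units (limma adjusted p = 0.00824), and after scaling of 430B to the shared probe sets the value was 0.39 and the call ended (adjusted p = 0.385). On 430A, 1432189_a_at read 45.7, 61.2 and 51.8 in the medulloblastomas, against 24.9 and 27.4 in the cerebellum samples, a log2 fold change of 0.70 ± 0.16 (limma adjusted p = 0.00547). Probe set 1423500_a_at read 38.0, 75.3 and 50.4 in the medulloblastomas, against 16.9 and 27.0 in the cerebellum samples, a log2 fold change of 0.88 ± 0.22 (limma adjusted p = 0.0103). The groups did not overlap in these 3 either.

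Leaving out a cerebellum sample ended each Sox5 call once, and the size depended on the sample left out. For 1423500_a_at, at 0.88 with all arrays, the value was 1.07 without cerebellum 2. Without cerebellum 1 the values were 0.56 for 1455535_at (adjusted p = 0.121), 0.66 for 1432189_a_at (0.0662) and 0.68 for 1423500_a_at (0.129). Without cerebellum 2 that of 1440827_x_at was 1.10 (0.0509). The 3 untested Sox5 probe sets read at most 19.4 on any array. Of these, 1432190_at and 1452511_at had medulloblastoma values above those of the cerebellum samples, and 1459261_at overlapped.

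Sox6, which pairs with Sox5 in cartilage and restrains early glial differentiation, was not called in any of its 4 probe sets. The brightest, 1434918_at on 430B, read 46.9, 42.0 and 35.8 in the medulloblastomas, against 47.9 and 50.3 in the cerebellum samples. All medulloblastomas lay slightly below, and the log2 fold change was -0.18 (95% interval -0.52 to 0.16, limma adjusted p = 0.488). After scaling to the shared probe sets it was -0.44 (adjusted p = 0.314). On 430A the intervals were -0.39 to 0.21 for 1426018_a_at and -0.28 to 0.34 for 1427677_a_at. Both probe sets were dim, at 19.3 to 25.5, where this scale understates changes, so the intervals do not bound the change of Sox6. The fourth probe set, 1447655_x_at, read 30.1, 22.5 and 5.76 in the medulloblastomas, against 12.0 and 6.02 in the cerebellum samples. Medulloblastoma 3 lay below both cerebellum samples there, and the value was 0.45 (95% interval -0.18 to 1.07, limma adjusted p = 0.345). The value became 0.76 without medulloblastoma 3 (adjusted p = 0.00361) and 0.20 after scaling to the shared probe sets (0.589).

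The SOXE gene Sox9, which specifies glia and stays on in astrocytes and Bergmann glia, was dim in both tissues and higher in the medulloblastomas. Probe set 1451538_at on 430A read 25.3, 49.2 and 41.7 in the medulloblastomas, against 15.8 and 20.9 in the cerebellum samples. Probe set 1424950_at read 23.2, 24.8 and 37.2 in the medulloblastomas, against 17.4 and 11.1 in the cerebellum samples. The groups did not overlap in either, and the log2 fold changes were 0.65 ± 0.20 (limma adjusted p = 0.0261) and 0.55 ± 0.17 (adjusted p = 0.0324). Both calls ended without medulloblastoma 3, at 0.60 (adjusted p = 0.0717) and 0.41 (0.0938), and without cerebellum 2, at 0.76 (0.0709) and 0.40 (0.286). The first also ended without cerebellum 1, at 0.54 (0.193), and the second with no filter (adjusted p = 0.0532), so the rise of Sox9 is less firm than those of Sox4, Sox11 and Sox1. The 430B probe set, 1433889_at, read at most 7.72 and was not tested. Unlike Sox9, 10 of 11 tested Bergmann glia and astrocyte markers fell, and none rose, though 1 was higher at an unadjusted p below 0.05.

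Sox8, expressed in oligodendrocytes and other glia, has 1 probe set, 1435438_at on 430B. It read 11.8, 12.3 and 15.8 in the medulloblastomas, against 10.4 and 11.3 in the cerebellum samples. These levels stood at the 27.2nd percentile of the chip, and although the groups did not overlap the log2 fold change was 0.12 (95% interval -0.21 to 0.45, limma adjusted p = 0.654), and -0.016 after scaling to the shared probe sets. Markers of the lineage moved in opposite directions, since 7 of 8 tested genes of mature oligodendrocytes fell and 3 of 6 genes of their precursors rose.

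**Figure D3:**
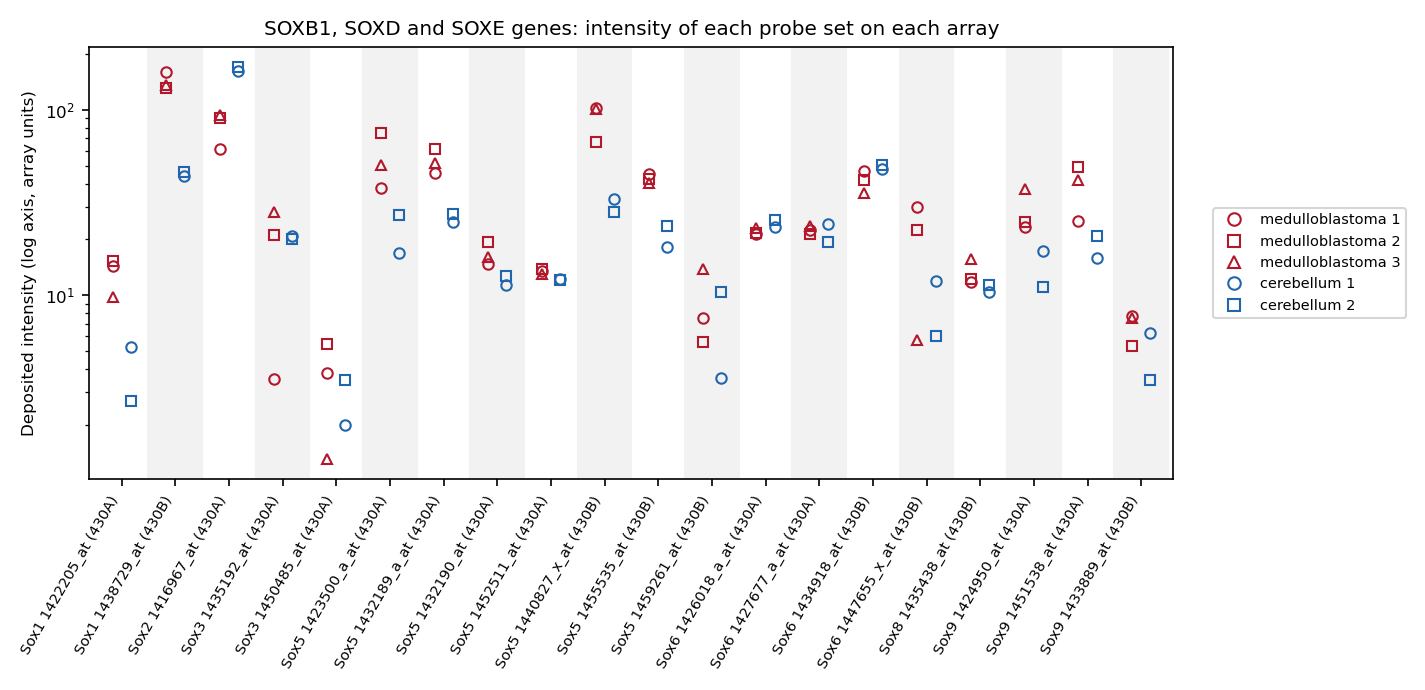
Deposited intensity (y axis, log scale) of the 20 SOXB1, SOXD and SOXE probe sets on each array, with 3 medulloblastomas in red to the left and 2 cerebellum samples in blue to the right of each position; symbols give the replicate number within a tissue and pair nothing. Sox2 is lower in all medulloblastomas (61.1 to 93.8, against 162 to 171), and the Sox1 probe set of 430B is higher in all of them (130 to 160, against 43.7 to 46.0).

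The 10 other measured SOX genes were set beside these with 1 probe set per gene. Of 6 tested, 1 rose and 1 fell, where 10.8% of 14104 tested genes were higher and 16.3% lower. Sox18, a SOXF factor of endothelial cells, read 244, 154 and 173 in the medulloblastomas, against 12.8 and 11.3 in the cerebellum samples, with no overlap and a log2 fold change of 2.86 ± 0.21 (limma adjusted p = 2.78e-06). Of 7 tested endothelial markers, 0 were higher by limma, also at an unadjusted p below 0.05, and 2 were lower. The summed intensity over 8 endothelial genes was 264 to 304 in the medulloblastomas and 290 to 324 in the cerebellum samples. The part of endothelial cells in the rise of Sox18 was not tested. Sox30 on 430B was dim, at 9.54, 6.05 and 7.34 in the medulloblastomas, against 26.3 and 24.3 in the cerebellum samples. It fell by 0.81 ± 0.15 on the log2 scale (limma adjusted p = 0.0035). After scaling to the shared probe sets its log2 fold change was -0.88 (limma adjusted p = 0.00159). The oligodendrocyte factor Sox10 changed on the log2 scale by 0.19 ± 0.17 (limma adjusted p = 0.452), Sox7 0.12 ± 0.14 (0.593), Sox13 0.26 ± 0.18 (0.309) and Sox15 -0.07 ± 0.16 (0.804). The probe sets chosen for Sox14, Sox17, Sox21 and Sry were too dim to be tested, while another probe set of 3 of these was tested. Sox17 1429177_x_at gave -0.37 ± 0.14 (limma adjusted p = 0.0692) with all medulloblastomas below, Sox21 1437059_at -0.26 ± 0.20 (0.444; -0.57 and 0.158 after scaling) and Sry 1450579_x_at 0.20 ± 0.20 (0.499), none called.

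Among 15 early neuron genes found with SOXC proteins, 10 of the 14 tested rose and 2 fell, with a median log2 fold change of 1.99 over those tested. Over all tested genes 10.8% were higher and 16.3% lower. Dcx read 667, 1406 and 1016 in the medulloblastomas, against 95.3 and 21.9 in the cerebellum samples, a log2 fold change of 3.95 ± 0.41 (limma adjusted p = 2.92e-05). The cell surface protein gene Cd24a rose by 3.83 ± 0.33 (adjusted p = 8.53e-06), the progenitor factor gene Insm1 by 3.48 ± 0.32 (1.17e-05) and the helix-loop-helix gene Nhlh1 by 2.67 ± 0.20 (3.37e-06). The 2 that fell, named after their values were seen, were Neurod1 (-1.60 ± 0.27) and Stmn2 (-1.58 ± 0.19), which stay on in mature neurons. Of 15 neural stem and radial glial genes found with SOXB1 proteins, 2 of 11 tested rose and 0 fell. The 2 were Otx2 (1.82 ± 0.19, limma adjusted p = 3.03e-05) and Pou3f4 (0.54 ± 0.17, adjusted p = 0.0303). At an unadjusted limma p below 0.05, 5 were higher and 1 was lower. The median over the 11 tested was 0.39, and with quantile normalization 5 rose. That setting also raised the number of all 430A probe sets called higher, from 2231 to 2738.

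**Figure D4:**
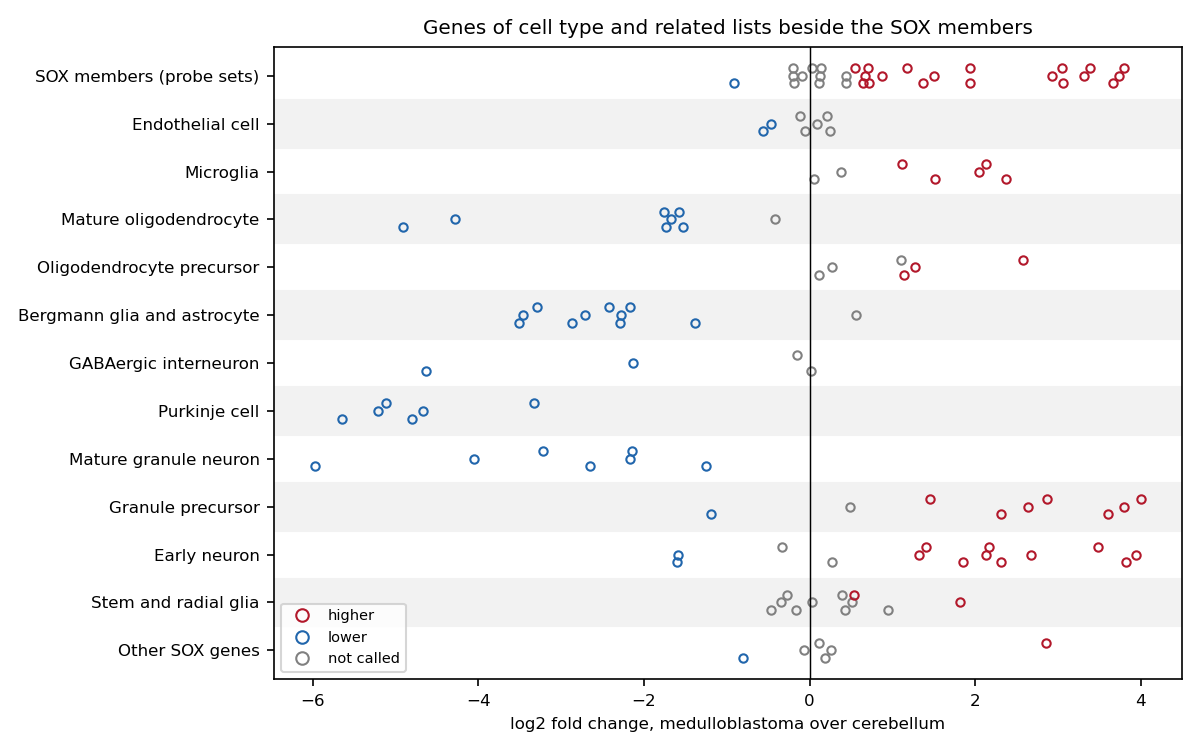
Log2 fold change of medulloblastoma over cerebellum (x axis) for each tested gene of the cell type and related lists and, in the top row, for the 30 tested SOX probe sets; 1 circle is 1 gene or probe set, red called higher, blue called lower and grey not called, and the vertical offset within a row carries no value. Markers of mature granule neurons and Purkinje cells lie wholly below 0, and the SOX probe sets spread between -0.92 and 3.80.

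Genes with a like pattern over the 5 arrays of a chip were named by the smallest root mean square distance between centred log2 values. For Sox11 (1453125_at) among 5799 genes of 430B they were Tox3 (distance 0.27), Miat (0.33) and Draxin (0.42). Tox3 read 407, 306 and 406 in the medulloblastomas, against 26.1 and 7.56 in the cerebellum samples, again with cerebellum 1 above cerebellum 2. For Sox2 among 12384 genes of 430A they were Herpud2 (0.050), Clvs1 (0.068) and Hnrnpul2 (0.073). Each distance describes 5 arrays only.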

How the data were processed

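Total RNA extracted with Trizol was turned into biotinylated cRNA and hybridised to Affymetrix 430A and 430B arrays, per the labels' protocols. The authors deposited linear intensity values. How these were scaled or background-corrected, and with which software, is not given in the sources used here. On each array 298 to 477 probe sets stood at exactly 1 and at most 3 below it. Precision is limited by the number of arrays. Detection calls were not used.

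Titles gave the tissue and replicate of each array. Each chip was fitted apart on log2(value + 16) with limma 3.58.1 in R 4.3.3 (lmFit, eBayes with an intensity trend, two-sided), without the 25% of probe sets of lowest mean. Gene names came from the platform annotation, updated by Entrez identifier. It gives 1 gene for 20380 of 22626 probe sets on 430A, several for 691 and no entry for 1555. For 430B these numbers are 14661, 245 and 7605 of 22511. Of those with 1 gene, 20351 and 14486 matched RefSeq genes of GRCm38.p6. For list genes, a probe set of 430A was preferred, next one without an _s_at or _x_at suffix, next the brightest. All SOX probe sets are named, and up to 4 called genes per list.

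The members and lists were chosen with earlier results of these data known, and the motifs after the values were seen. The fit was run on simulated data with independent normal noise, as a check of the code and not of the calls given here. Alternatives were pseudocounts of 1 and 64, quantile normalization, equal medians, no filter or one of 50%, no trend, a replicate block, each array left out, 430B scaled on the shared probe sets and suffixes _s_at and _x_at left out. Counting 1 probe set per sequence record and omitting medulloblastomas 1 and 2 of 430B were chosen after seeing the data. Plots used matplotlib 3.10.9 (Python 3.11.15).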

Additional observations from a re-analysis of the deposited data

How the results depend on the processing

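With each array left out in turn, 8 to 11 SOX probe sets were higher and 0 to 1 lower on 430A (0 without cerebellum 2), and 7 to 9 were higher and 0 lower on 430B. With 1 probe set per sequence record, 7 were higher on 430A, since fewer were counted. All Sox4, Sox11 and Sox1 calls held in every fit that left out 1 array. Values that changed sign were not called in either fit: Sox3 1435192_at (-0.32 to 0.15 with an array left out, above 0 without medulloblastoma 1), Sox6 1427677_a_at (-0.069 to 0.12, below 0 without cerebellum 2), Sox4 1443778_at and Sox8 1435438_at (-0.0041 and -0.016 with 430B scaled), Sox4 1458332_x_at (0.14 without medulloblastomas 1 and 2 of 430B), Sox15 (0.0019 without medulloblastoma 2 and 0.067 without cerebellum 1, with a lowest value of -0.20) and Sry 1450579_x_at (-0.15 to 0.55, below 0 without cerebellum 2). The causes were not tested.

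No cerebellum sample has number 3, so the replicate block takes medulloblastoma 3 out of the estimate, and its values equal those without medulloblastoma 3 in all 29 SOX probe sets with both. It gave 10 higher and 1 lower on 430A and 9 higher and 0 lower on 430B; the fit ended the call of Sox9 1424950_at (0.41, adjusted p = 0.0754) and called Sox6 1447655_x_at (0.76, 0.00259). Same-numbered samples of the tissues correlated in their deviations by -0.03 and 0.17 on 430A and 0.11 and 0.02 on 430B. The deviations of the cerebellum samples are mirror images of each other, so these correlations cannot show whether samples are paired. The titles do not say that the numbers pair samples, and the numbers were not taken to do so.

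Among other SOX genes 0 fell with a filter of 50% or without cerebellum 1, fits in which Sox30 was below the filter. Of the stem and radial glial genes 5 rose with quantile normalization and 1 with a filter of 50%. With an array left out, 1 to 2 rose and 0 to 1 fell, and Pou3f4 lost its call in 4 of the 5 fits. Over all probe sets, those higher on 430A numbered 2231, and 1436 without cerebellum 1 and 1284 without cerebellum 2; those lower numbered 3229, and 1967 without cerebellum 2. On 430B those higher numbered 1326, and 2823 with the replicate block, 823 without medulloblastoma 2, 2601 without medulloblastoma 3, 618 without cerebellum 1 and 513 without cerebellum 2; those lower numbered 1649, and 988 and 917 without either cerebellum sample. With 1 cerebellum array left, that array is assumed to vary like the medulloblastomas, and without medulloblastomas 1 and 2 of 430B the 1 medulloblastoma left is assumed to vary like the cerebellum samples, so that fit is no evidence of stability. Signal near the lowest deposited level limits what can be said of Sox3, Sox8 and the dim probe sets.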

Other observations

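Gaps between the cerebellum samples are given here on the log2 scale of the fit. Cerebellum 1 exceeded cerebellum 2 by more than 1 unit in 42 of 22626 probe sets on 430A and 29 of 22511 on 430B. Of the 42, 28 were called higher and 2 lower in the medulloblastomas, where 13.1% and 19% of all tested probe sets of 430A were. Of the 29, 11 were higher and 5 lower, where 7.85% and 9.77% of 430B were. Beside Sox11 (250 in cerebellum 1 and 30.8 in cerebellum 2 with 1431225_at) the probe sets with this gap include the D cyclin gene Ccnd2 (105 and 21.3 with 1416122_at) and the topoisomerase gene Top2a (65.4 and 4.65). Further ones are Mki67 (53.8 and 11.2), Insm1 (42.6 and 7.50 with 1421399_at) and, on 430B, the cyclin-dependent kinase gene Cdk6 (51.6 and 4.91 with 1435338_at). Those called lower include Ywhaz and Sdc4 on 430A and Fbxw11 on 430B, and those not called include Chd1 and Mrpl1 on 430A. All of these were named after their values were seen. In the other direction, cerebellum 2 exceeded cerebellum 1 by as much in 57 probe sets on 430A, of which 2 were called higher and 35 lower in the medulloblastomas, and in 17 on 430B, of which 1 was higher and 5 lower.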
